A study of Mus musculus with 9 samples.

Results

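Ciliated-like cells of the mouse caput epididymis were chosen from a table of unique molecular identifiers (UMIs, 1 per captured transcript) by 5 genes of motile cilia, Foxj1, Ccdc153, Sntn, Tmem212 and Dynlrb2. A barcode was kept with 300 to 4000 detected genes, at most 20000 UMIs and under 50% mitochondrial UMIs. A kept barcode was called ciliated-like when at least 3 of the 5 genes were detected with 5 or more UMIs over them, and when neither Prm1 nor Prm2, the protamine transcripts of sperm, was above 2 UMIs. The rule found 150 cells among 42087 kept barcodes, and all 150 lay in the caput. Single-cell RNA-seq was measured on the Singleron GEXSCOPE platform in 9 libraries of untreated C57BL/6 mice (C57BL/6J in the study's methods), covering caput, corpus and cauda at postnatal day 42 (P42) and day 56 (P56). The animals were wild type according to the labels, the segments of 5 mice were pooled into each library, and there was 1 P42 pool against 2 P56 pools, called replicate 1 and replicate 2. The table held 307987941 UMIs of 32195 genes in 44869 barcodes, and the 2 age groups therefore differ in replication, since no second P42 library gives the spread at that age.

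Motile multiciliated cells carry many beating cilia on their apical surface, and FOXJ1 is the transcription factor that switches on the genes of the motile axoneme, the microtubule core of a cilium. In the male tract such cells are best known from the efferent ducts, which carry sperm and fluid from the testis to the caput, where they stand beside cells that absorb fluid. Principal cells of the epididymis carry stereocilia, which are long actin-filled protrusions and hold no axoneme. Whether the dissected caput held tissue of the efferent ducts is not given in the sources used here.

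The 5 genes of the rule were high in ciliated-like cells of each caput library, which is a description because these values chose the cells. Levels are given as CPM, the UMIs of a gene per 1000000 UMIs summed over the cells of a class in 1 library. Foxj1 stood at 184, 75.3 and 124 CPM in the P42 library and P56 replicates 1 and 2, and it did not exceed 4.77 in any other caput class. Ccdc153 stood at 1162, 459 and 853 CPM in the same order, Sntn at 853, 444 and 542, Tmem212 at 978, 489 and 771, and Dynlrb2, a dynein light chain, at 765, 535 and 630. P56 replicate 1 was the lowest of the libraries for each of the 5 genes. A UMI of Foxj1 itself was found in 73 of the 150 cells, whereas Ccdc153 was found in 145, Tmem212 in 144, Dynlrb2 in 142 and Sntn in 135.

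The label was checked with 78 axonemal genes that the rule did not use, namely dynein arms, dynein assembly factors, radial spokes with the central pair, and proteins of the doublet microtubules. A ciliated-like cell held a UMI of 1 to 47 of these genes (median 20.5), and 147 of 150 cells held at least 5. The medians were 21 at P42, 16 in P56 replicate 1 and 21 in P56 replicate 2. Principal-like cells held a median of 1 axonemal gene, basal-like cells 2 and clear/narrow-like cells 1, at medians of 5783.5, 6986 and 6292 UMIs per cell against 6407 in ciliated-like cells. Relative to depth, the median was 53.3 axonemal UMIs per 10000 UMIs in ciliated-like cells and 2.57 in principal-like cells. By library it was 59.8 at P42, 26.5 in P56 replicate 1 and 54.3 in P56 replicate 2, so the cells of P56 replicate 1 carried less axonemal RNA for their depth. Axonemal RNA was also found in cells with germ-line transcripts, since 87 principal-like cells with 5 or more of 17 germ-line genes (5 at P42, 20 in P56 replicate 1 and 62 in P56 replicate 2) held a median of 29 axonemal genes. Ciliated-like cells with 5 or more germ-line genes numbered 0, 0 and 3 in the same libraries.

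**Figure D1:**
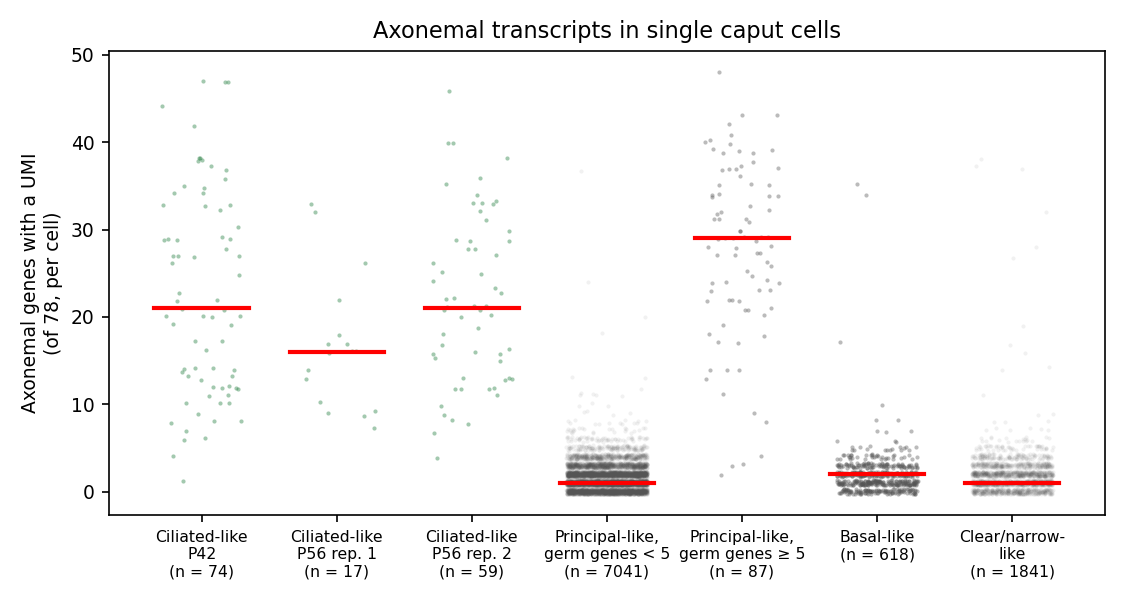
Number of 78 axonemal genes with a UMI in each caput cell (y axis) for ciliated-like cells of the 3 libraries and for other classes (x axis); each point is a cell, shifted at random by less than 1 unit for visibility, and red bars are medians. Ciliated-like cells have medians of 21, 16 and 21 genes, principal-like cells with fewer than 5 germ-line genes a median of 1, and principal-like cells with 5 or more germ-line genes a median of 29.

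Ciliated-like cells made up 74 of 4209 kept cells in the P42 caput, which is 1.76% (95% Clopper-Pearson interval 1.38 to 2.20%). They made up 17 of 4868 cells (0.349%, interval 0.204 to 0.559%) in P56 replicate 1 and 59 of 4910 cells (1.20%, interval 0.916 to 1.55%) in P56 replicate 2. The 2 P56 libraries thus differed from each other by more than their counting error. With that spread and a lone P42 library, no order by age can be read from these shares. The interval of P56 replicate 2 overlapped that of P42. With each cell reduced at random to 2000 UMIs it did not (0.430 to 0.896% against 0.933 to 1.63%). No such cell was found among 13778 corpus cells, which allows a share of up to 0.0218%, or among 14322 cauda cells, which allows up to 0.0209%. The most markers seen in a corpus or cauda cell were 2 of the 5. These intervals and limits cover counting error only.

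**Figure D2:**
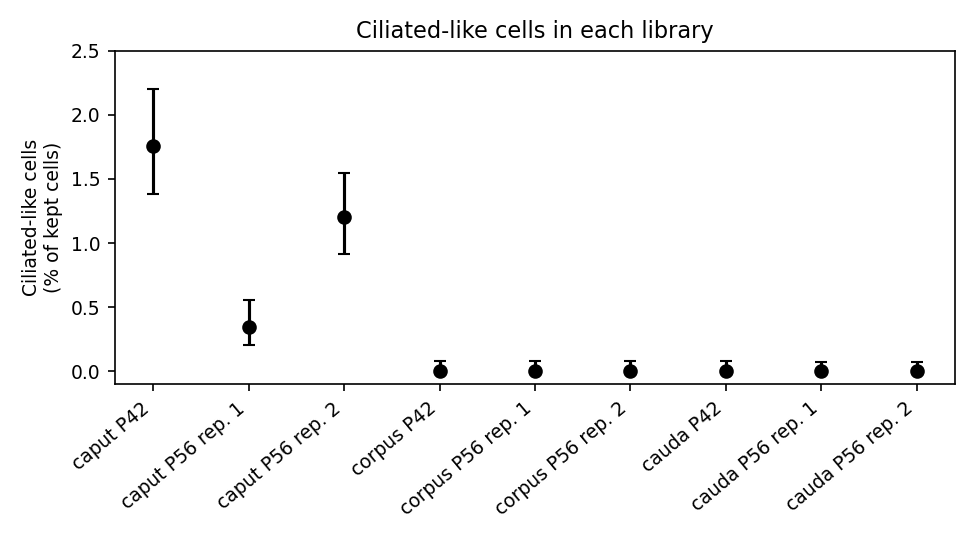
Share of kept cells that are ciliated-like (y axis, percent) in each of the 9 libraries (x axis); bars are 95% Clopper-Pearson intervals of the count in 1 library. The P42 caput stands at 1.76%, the P56 caput replicates at 0.349% and 1.20%, and the 6 corpus and cauda libraries at 0.

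Of the 150 cells, 21 held 3 of the markers, 69 held 4 and 60 held 5, with 5 to 106 marker UMIs per cell (median 17.5). The 25 cells just inside the rule, with exactly 3 markers or exactly 5 UMIs, held a median of 12 axonemal genes. Just outside it, 14 cells with 3 or more markers but 3 or 4 UMIs held a median of 5.5, 13 cells with 2 markers and 5 or more UMIs held 10, and 7 cells that met the marker rule but had more than 2 UMIs of a protamine held 12. A further 27 barcodes met the marker rule but not the filter on barcodes. Thinning each cell to 2000 UMIs left 52, 5 and 31 ciliated-like cells, which is 1.25%, 0.105% and 0.632% of the thinned cells and keeps the order of the 3 libraries. A looser rule of 2 markers and 3 UMIs found 107, 21 and 74 cells, and also 1 cell in the P42 corpus and 2 in the corpus of P56 replicate 2.

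No doublet caller was run. The rule set no limit on markers of other cell types, and 70 of the 150 cells also met the marker gate of another class, most often fibroblast (31 cells), clear/narrow (28) and macrophage (13). The principal gate was met by 148 of the 150 cells, as by 13967 of the 13987 kept cells of the caput. Each compared class excluded cells that met a second gate other than the principal one. The choice of cells therefore bears on the comparison for marker genes of a gate and for other genes of those cell types. Counts without the 70 cells are given for the comparisons as a whole and for several lists, but levels of single genes without them are not given. The cells had a median of 2529.5 detected genes against 1756 in principal-like cells, and the median mitochondrial share was 7.93% against 5.71% in principal-like, 5.87% in basal-like and 9.22% in clear/narrow-like cells. Of 41926 distinct kept barcodes, 116 occurred in more than 1 library, and 1 ciliated-like cell carried such a barcode.

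Ciliated-like cells were compared with principal-like cells of the same libraries, the secretory cells that make up most of the caput epithelium. UMIs were summed per library and class, giving 488946, 132811 and 411379 UMIs for the ciliated-like cells of P42 and P56 replicates 1 and 2, against 7128 principal-like cells in all. The sums were tested by edgeR's quasi-likelihood test with the library as a block, and calls needed a 2-fold change or more with a p under 0.05 after Benjamini-Hochberg adjustment. Because P56 replicate 1 held only 17 ciliated-like cells, 1 UMI in their sum equals 7.53 CPM. Of 12366 genes tested, 1207 (9.76%) were higher and 798 (6.45%) lower in ciliated-like cells, with a median log2 fold change of -0.10 over all genes. Without the 70 cells that met another gate the counts were 885 and 645, without the P42 library 759 and 481, and without P56 replicate 2 there were 829 and 524. With scaling by library size alone the median of all genes moved to 0.38, and the counts became 1897 higher and 288 lower.

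The axonemal genes were the plainest difference. Of the 71 tested, 64 were higher and 0 lower than in principal-like cells, where 9.76% of all genes were higher, and their median log2 fold change was 3.77. Genes low in principal-like cells could pass the filter on low counts through the ciliated-like sums, so this count describes the tested genes and not all 78. Among the dynein arms, the motors that slide the doublets, 17 of 18 tested genes were higher (median log2 fold change 4.24). Dnah5, a heavy chain of the outer arm, stood at 92.0, 90.4 and 80.2 CPM in ciliated-like cells of P42 and P56 replicates 1 and 2 and at 1.38, 1.07 and 0.511 in principal-like cells. The groups did not overlap, and the difference was 65.5-fold (log2 fold change 6.03, SE 0.43, adjusted p = 3.08e-42). Dnah9, a heavy chain of the distal outer arm, stood at 49.1, 22.6 and 24.3 CPM against at most 0.53 in principal-like cells, an 85.2-fold difference that was the largest among the dynein arms. The inner arm heavy chain Dnah12 varied more between the libraries, with 178, 30.1 and 119 CPM against 2.76, 2.41 and 5.81 (log2 fold change 4.40, SE 0.31, adjusted p = 2.32e-44). Armc4, Ccdc114, Ccdc151 and Ttc25, which dock the outer arms on the doublets, were 33.6-, 13.7-, 43.8- and 10.1-fold higher. Only Dnah2 among the tested dynein arms was not called, with 5 UMIs in all ciliated-like cells, and Dnah7a and Dnah10 had too few counts for the test.

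All 5 tested assembly factors, which fold and preassemble dynein arms in the cytoplasm, were higher (median log2 fold change 3.20). Lrrc6 stood at 123, 37.6 and 117 CPM against 3.29, 2.60 and 7.41 (log2 fold change 3.94, SE 0.31), and Zmynd10 was 12.6-fold higher. Among the radial spokes, the nexin links and the central pair, 24 of 26 tested genes were higher (median 3.96). The radial spoke head gene Rsph4a stood at 205, 82.8 and 165 CPM and stayed under 1 in each principal-like sum, at 0.955, 0.511 and 0.575. This was the largest difference among all axonemal genes (log2 fold change 7.27, SE 0.34, adjusted p = 8.22e-96). Ccdc39, part of the ruler that sets the spacing of arms and spokes, stood at 348, 90.4 and 304 against 5.94, 5.29 and 13.2 CPM. Hydin and Spef2, both of the central pair, were 49.8- and 26.2-fold higher, and Drc1 of the nexin link 26.5-fold. Rsph3a and Rsph3b were not called, with 5 UMIs each.

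Of 22 doublet genes, 18 were higher (median log2 fold change 3.39). Cfap126, which docks basal bodies at the apical membrane, stood at 579, 331 and 503 CPM against 10.8, 10.3 and 18.1 (log2 fold change 4.69, SE 0.16, adjusted p = 8.71e-185), and 127 of 150 ciliated-like cells held a UMI of it against 6.23% of principal-like cells. Enkur stood at 399, 196 and 394 against 12.1, 9.28 and 19.6 CPM. Tekt1, a filament protein inside the doublet, stood at 155, 97.9 and 87.5 against 2.12, 3.06 and 6.96. For Cfap126, Enkur and Tekt1 the lowest ciliated-like value lay above the highest principal-like value. Cfap53 was not called, at 141, 82.8 and 134 CPM against 75.7, 80.4 and 77.1, and it also differed little from the median of all genes (log2 fold change 0.23). Leaving out cells changed these counts little. Of the dynein arms, the assembly factors, the spokes and the doublet genes, 17, 5, 23 and 18 were higher without the cells holding germ-line genes, and 17, 5, 23 and 19 without the cells that met another gate.

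**Figure D3:**
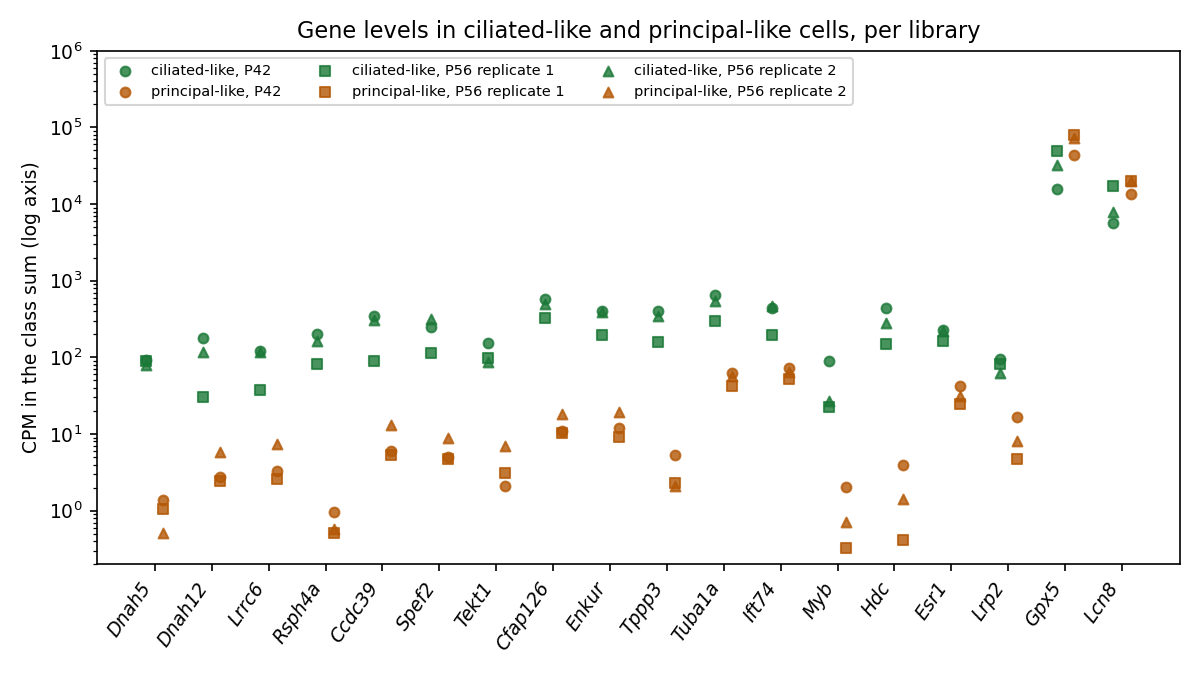
Levels of 18 genes (x axis) in ciliated-like (green) and principal-like cells (brown) of the 3 caput libraries, in CPM on a log axis; each symbol is 1 library. For the genes from Dnah5 to Lrp2 every ciliated-like value lies above every principal-like value, and for Gpx5 and Lcn8 the ciliated-like value is below the principal-like value of the same library.

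Cilia also need transport along the axoneme, tubulin and a tubulin-modifying machinery. Of 29 tested genes of intraflagellar transport, which carries building blocks along the cilium and is used by primary cilia too, 20 were higher and 0 lower, beside 9.76% and 6.45% of all genes, with a smaller median log2 fold change of 1.75. Ift74 stood at 436, 196 and 469 CPM against 73.3, 51.5 and 65.1 (log2 fold change 2.07, SE 0.14), Ift88 was 5.81-fold higher, and Dync2h1, the motor of the return path, 5.57-fold. Ift20 was not called, at 479, 437 and 430 against 450, 398 and 406 CPM. Of 13 tested tubulin genes and tubulin modifiers 4 were higher and 4 lower, beside the same shares of all genes. Tuba1a stood at 646, 301 and 547 CPM against 63.2, 42.7 and 56.7 and was 6.56-fold higher. Tubb4b, the beta-tubulin of axonemes, was 2.40-fold higher at 170, 203 and 151 against 58.5, 39.3 and 49.8. Tppp3, which promotes tubulin polymerization, was 68.7-fold higher, and Ttll6, a ligase that adds glutamate chains to tubulin, 16.6-fold. Lower in ciliated-like cells were Tuba1c (2.66-fold), Ttll9 (2.61-fold), Tubb2a (2.32-fold) and Tubb5 (2.09-fold), but with scaling by library size alone none of these 4 was called.

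The regulators above the axoneme were thinly sampled. Of 16 genes of ciliary transcription only 8 could be tested, and 4 were higher, Myb, Rfx3, Rfx2 and Fank1, beside 9.76% of all genes. Genes low in principal-like cells, such as Myb and Rfx3, could pass the filter on low counts through the ciliated-like sums. The counts of this and the other lists therefore describe the tested genes and not all members. Myb, which multiciliated cells need early in their differentiation, stood at 90.0, 22.6 and 26.7 CPM against 2.02, 0.325 and 0.702 (log2 fold change 5.00, SE 0.53, adjusted p = 1.53e-19), highest at P42. Rfx3, a factor that binds X-box elements of ciliary genes, stood at 28.6, 22.6 and 12.2 against 1.48, 0.511 and 1.09 and rested on 22 UMIs. The inducers of multiciliation Mcidas and Gmnc had 2 UMIs each in all ciliated-like cells, and no difference is read from so few counts. Mcidas was detected in 2 of 150 ciliated-like and 50 of 7128 principal-like cells, and Gmnc in 2 and 1. Trp73, a p53-family factor of multiciliated cells, had too few counts for the test, with a UMI in 12 of 150 ciliated-like and 5 of 7128 principal-like cells. Of the genes that multiply and dock centrioles, 13 could be tested, and 4 were higher and 1 lower, beside 9.76% and 6.45% of all genes. The centrins Cetn4 and Cetn2 were 5.78- and 2.14-fold higher, Dzip1l, a protein of the ciliary transition zone, was 41.4-fold higher at 83.9, 82.8 and 92.4 CPM against 2.65, 0.511 and 1.47, and Cep89, of the distal appendages, was 2.34-fold higher. Plk4, the kinase of centriole duplication, was lower on 6 UMIs, but 8 of 11 alternatives did not call it. Genes of deuterosomes, the platforms on which many centrioles form, were scarce, with 13 UMIs of Deup1, 17 of Ccno and 0 of Cdc20b. Deup1 was detected in 12 of 150 ciliated-like and 48 of 7128 principal-like cells, Ccno in 14 and 680, and Cdc20b in 0 and 6.

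Promoters of the genes that were higher together were searched for the X-box, the element of the RFX factors, written here as GTTNCC, any 2 or 3 bases and GNAAC, and for a forkhead element written GTAAACA, both on either strand in the 250 bases before the first start that RefSeq lists for a gene. An X-box lay in 343 of 27025 promoters (1.27%) and in 1.34% of the genes tested. It lay in 39 of 938 matched promoters (4.16%) of genes higher in ciliated-like cells, and in 8 of 52 matched promoters (15.4%) of the axonemal genes that were higher, namely those of Dnah9, Dnaic1, Dnaic2, Ccdc151, Hydin, Spag16, Tekt2 and Cfap45. The forkhead letters lay in 3.09% of all promoters, 2.17% of those of tested genes, 3.62% of those of higher genes, none of the 52 and 3 of 19 (15.8%) of the 20 genes with the largest increase, described further on. These shares are a description of letters in a fixed window and show no binding. The promoters of 5 axonemal genes, of the transport gene Ift57 and of Stoml3, the gene whose pattern was closest to that of Foxj1, are printed as examples that hold a match within the 120 bases, chosen after the matches were seen, each as the bases before the start on the strand of the gene, with the match in capitals (RefSeq, GRCm38.p6). They span chr11:66168552-66168671 on the minus strand (Dnah9), chr11:114727299-114727418 on the plus strand (Dnaic2), chr8:110266857-110266976 on the plus strand (Hydin), chr4:126325689-126325808 on the minus strand (Tekt2), chr1:172521010-172521129 on the plus strand (Cfap45), chr16:49699174-49699293 on the plus strand (Ift57) and chr3:53488587-53488706 on the plus strand (Stoml3). The capitals mark the X-box in the first 6 promoters and the forkhead letters in that of Stoml3.
Dnah9: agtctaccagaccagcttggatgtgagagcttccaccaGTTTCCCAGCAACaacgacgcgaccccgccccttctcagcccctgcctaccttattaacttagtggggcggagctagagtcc
Dnaic2: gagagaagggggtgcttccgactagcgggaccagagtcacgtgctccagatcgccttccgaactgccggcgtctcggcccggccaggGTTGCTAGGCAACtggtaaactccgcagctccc
Hydin: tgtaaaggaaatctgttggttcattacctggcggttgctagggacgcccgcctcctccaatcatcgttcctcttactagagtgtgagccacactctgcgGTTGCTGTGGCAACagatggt
Tekt2: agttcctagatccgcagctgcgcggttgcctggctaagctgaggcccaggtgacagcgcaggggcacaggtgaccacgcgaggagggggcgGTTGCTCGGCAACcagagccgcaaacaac
Cfap45: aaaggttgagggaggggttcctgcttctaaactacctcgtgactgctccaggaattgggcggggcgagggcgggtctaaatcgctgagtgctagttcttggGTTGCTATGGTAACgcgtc
Ift57: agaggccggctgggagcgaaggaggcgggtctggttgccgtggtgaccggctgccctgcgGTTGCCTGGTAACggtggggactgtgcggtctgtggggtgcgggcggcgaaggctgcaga
Stoml3: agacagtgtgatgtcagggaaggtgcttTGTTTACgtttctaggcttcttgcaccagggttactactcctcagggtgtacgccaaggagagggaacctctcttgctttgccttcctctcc

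Among the printed promoters, the first base of the X-box lay 19 bases before the start in Cfap45, 21 bases in Hydin, 29 in Tekt2, 33 in Dnaic2, 60 in Ift57 and 82 in Dnah9. Of the axonemal genes not printed it lay at 19 bases in Dnaic1, 34 in Ccdc151 and 103 in Spag16. In ciliated-like cells of P42 and P56 replicates 1 and 2, Cfap45 stood at 137, 75.3 and 80.2 CPM, Dnaic2 at 24.5, 22.6 and 17.0, and Tekt2 at 51.1, 0 and 34.0. Tekt2 was thus not seen in P56 replicate 1, where the sum of all ciliated-like cells was smallest. In principal-like cells these genes did not exceed 6.70, 0.636 and 6.83 CPM, respectively.

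The 20 genes with the largest fold change upward, among those higher in every library with at least 30 UMIs, ranged from a log2 fold change of 6.78 to 8.30. Pcsk1n, which encodes an inhibitor of a prohormone convertase, led them at 67.5, 45.2 and 53.5 CPM against 0.212, 0.139 and 0 in principal-like cells, and a UMI of it was found in 36 of 150 ciliated-like cells against 0.0701% of principal-like cells. Prr29 followed at 182, 97.9 and 170 against 0.318, 0.279 and 0.638 CPM (log2 fold change 7.89, SE 0.37, adjusted p = 1.48e-97). Hdc, the enzyme that makes histamine, stood at 446, 151 and 277 against 3.92, 0.418 and 1.40 and was 119-fold higher. It was detected in 106 ciliated-like cells, with up to 21 UMIs in a cell. The others with a known product were Rsph4a of the spoke heads, Syt10, a synaptotagmin (177-fold), Ccdc170 (151-fold), Odf3b (137-fold), Kcnmb1, a subunit of the BK potassium channel (126-fold), the cadherin Cdhr3 (123-fold), Bbox1, which completes carnitine synthesis (120-fold), the carboxylesterase Ces1b (117-fold), the disulfide isomerase Agr3 (116-fold), Dmkn, Stoml3 and Cfap97d2. The remaining 5 were 2410004P03Rik, C230072F16Rik, Gm28729, Gm867 and BC051019, whose products are uncharacterized or not known with certainty here. All 20 were higher at the lowest ciliated-like library than at the highest principal-like library, and each was called under every alternative in which it could be tested. The 20 were chosen by call, direction and size of the difference, so both facts describe that choice and are no separate evidence. Those low in principal-like cells could pass the filter on low counts through the ciliated-like sums.

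The study itself drew Prr29, Hdc, Gm19935, 1700024G13Rik, Fam183b and Fam166c as markers of its principal cells with cilia, which it likened to cells with stereocilia. These 6 genes were all higher (6 of 6, median log2 fold change 6.58), but they were chosen on these samples and are not independent evidence. Fam183b was the most widely detected of them, in 139 of 150 ciliated-like cells and 2.16% of principal-like cells. The genes most like Foxj1 over 30 sums (10 caput classes in 3 libraries) were Stoml3 (r = 0.944), 2010204K13Rik, Syt10, Fndc7, Gm19935, Fam216b, Gria1, Agr3, Sult1d1 and BC051019 (r = 0.923) among 17157 genes. These correlations describe sums that share libraries and depth, and they are carried by the contrast of 3 ciliated-like sums with all others. Foxj1 was also among the genes that chose the ciliated-like cells, so any gene high in those cells tends to follow it. Stoml3, a stomatin-like protein of sensory membranes, stood at 67.5, 30.1 and 34.0 CPM and did not exceed 2.03 in any other class. Gria1, an AMPA receptor subunit, stood at 47.0, 30.1 and 26.7 and did not exceed 0.846.

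**Figure D4:**
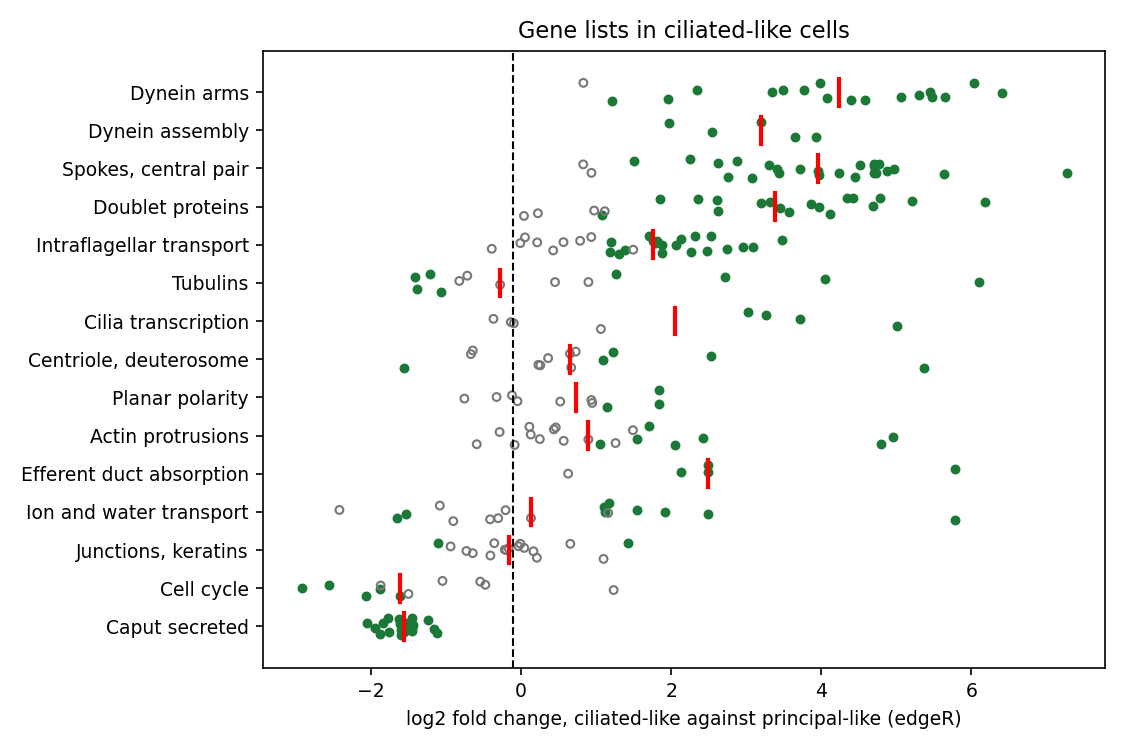
log2 fold change (x axis) of each tested gene of 15 lists (y axis) between ciliated-like and principal-like cells; filled points are called genes, open points are not called, red bars are list medians and the dashed line is the median of all tested genes, -0.10. The dynein arms have a median of 4.24 and intraflagellar transport of 1.75, while the caput secreted genes lie between -2.05 and -1.13.

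Genes of actin protrusions were also examined, since stereocilia are built on actin. Of 19 tested, 7 were higher and 0 lower, beside 9.76% of all genes higher, and without the 70 cells that met another gate 4 of 17 were higher. Here too, genes low in principal-like cells, such as Pls1 and Ush1c, could pass the filter on low counts through the ciliated-like sums. Pls1, which bundles actin in microvilli, stood at 129, 37.6 and 97.2 CPM against 4.35, 1.11 and 1.66 and was 27.9-fold higher. Ush1c, the scaffold harmonin, was 31.2-fold higher on 21 UMIs, Cobl, an actin nucleator, 5.36-fold, Eps8l2 4.14-fold, Cdhr5 3.27-fold, the actin-capping protein Eps8 2.92-fold and Msn 2.08-fold. Actb, the gene of beta-actin, was not called (log2 fold change 0.11, SE 0.13), at 4084, 4585 and 5423 CPM in ciliated-like cells against 3059, 2994 and 3145 in principal-like cells. In basal-like cells Actb stood at 5893, 6710 and 7035. Ezr, which links actin to the membrane, was not called either, at 450, 414 and 365 against 426, 296 and 332 CPM.

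Of 7 genes known from absorption in the efferent ducts, 5 could be tested and 4 were higher than in principal-like cells, where 9.76% of all genes were. Genes low in principal-like cells, such as Slc9a3, could pass the filter on low counts through the ciliated-like sums, so this count describes the tested genes and not all 7. Against clear/narrow-like cells 2 of 4 were higher, and the 7 genes summed to 922, 700 and 851 CPM in ciliated-like and 930, 685 and 606 in clear/narrow-like cells. Esr1, the estrogen receptor that controls fluid absorption there, stood at 227, 166 and 219 CPM against 43.0, 24.7 and 31.5 in principal-like cells (log2 fold change 2.14, SE 0.18, adjusted p = 5.52e-32). Lrp2, the endocytic receptor megalin, stood at 94.1, 82.8 and 63.2 against 16.5, 4.69 and 8.17 and was 5.64-fold higher. Aqp1, the water channel of the efferent duct epithelium, stood at 73.6, 75.3 and 29.2 against 15.6, 2.37 and 3.96, also 5.64-fold higher. The groups did not overlap for any of Esr1, Lrp2 and Aqp1. Slc9a3, the sodium-proton exchanger of the same epithelium, had 11 UMIs in ciliated-like cells (10.2, 7.53 and 12.2 CPM) and did not exceed 0.212 CPM in principal-like cells. Dab2, an adaptor of megalin, was not called (log2 fold change 0.63). Lhx1, a homeobox factor of the embryonic duct, was 10.5-fold higher at 28.6, 52.7 and 19.4 against 4.35, 0.975 and 1.15 CPM. Atp1b1, a subunit of the sodium pump, was 2.17-fold higher, whereas Aqp9 and Cftr, the water and chloride channels of principal cells, were lower on 8 UMIs each. Of the genes of duct identity and steroid receptors 2 of 13 were higher, and of those of ion and water transport 7 of 17, beside 9.76% of all genes. Of the transport genes, 3 were higher without the 70 cells that met another gate, and 4 without either P42, P56 replicate 1 or P56 replicate 2.

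Secreted proteins of the caput were lower in ciliated-like cells. All 26 listed genes were called lower, where 6.45% of all genes were, but all 10 markers of the gate for the compared principal-like cells are among the 26, so for those the choice of cells bears on the direction. Together they made up 67631, 162660 and 91745 CPM in ciliated-like cells, against 163372, 233819 and 216531 in principal-like, 72823, 115388 and 95778 in basal-like and 87213, 147727 and 154903 in clear/narrow-like cells. The sum in ciliated-like cells was below that of basal-like cells at P42 and in P56 replicate 2 and above it in P56 replicate 1. RNA of these genes was thus found in every class, and the part of free RNA in it was not tested. Gpx5, a secreted glutathione peroxidase, stood at 15893, 49762 and 32250 CPM in ciliated-like and 44062, 79440 and 72604 in principal-like cells, a 3.03-fold difference. The P56 replicate 1 value of Gpx5 in ciliated-like cells exceeded the P42 value in principal-like cells, so the groups overlapped across libraries but not within any of them. Against basal-like cells 1 of the 26 was lower, Clu, which stood at 1888, 896 and 1716 CPM against 4435, 4157 and 3810. With scaling by library size alone 17 of the 26 were lower than in principal-like cells, and without the block 21.

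Of the 798 lower genes, 308 had at least 30 UMIs in ciliated-like cells. The largest decreases among these were in further secreted proteins of the caput, namely Wfdc13, Spag11a, Pate6, Defb23, Serpina1f, Spink11, AY761185, Lypd8 and Defb28, and in Gm6040, with log2 fold changes between -2.74 and -2.12. Each of these 10, which were chosen after their values were seen, was lower than in clear/narrow-like cells too but was not called against basal-like cells. The 10 largest decreases by the rule for named genes all had 0 UMIs in ciliated-like cells, namely Knl1, Pex11g, Gm26569, Gm5656, Ido2, Sgo1, Slc4a5, Bub1, Ccdc183 and Gm20471, and against a floor of 3 counts over the group they were at least 1.5- to 3.0-fold lower. Knl1, Sgo1 and Bub1 act at the centromere and kinetochore during mitosis. Of 11 tested cell cycle genes 5 were lower, beside 6.45% of all genes, namely Birc5, Top2a, Ccnb1, Mki67 and Ccnb2. Mki67, the proliferation marker, stood at 12.3, 7.53 and 9.72 CPM against 43.4, 11.7 and 18.4 in principal-like cells. Without the block 1 of these 11 was lower, without the P42 library 2 were, and without the 70 cells that met another gate 3 of 10 were.

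Calls in the remaining lists are set beside 9.76% of all genes higher and 6.45% lower. Of 17 genes of junctions and keratins 1 was higher, Krt8, at 798, 745 and 858 CPM against 288, 177 and 183, and 1 lower, Grhl2. Epcam, a marker of epithelia, stood at 548, 354 and 467 against 488, 301 and 320 and was not called. Of 10 genes of planar polarity, which aligns cilia across a sheet of cells, 3 were higher (Vangl1, Ptk7 and Fzd6), but 0 were without P56 replicate 2 and 1 without P42. Of 8 Notch genes 2 were higher, the ligands Jag1 and Jag2, and 0 without P42, where 9.76% of all genes were higher in the full comparison. None of 101 nuclear genes of oxidative phosphorylation and none of 11 genes of the mitochondrial genome was called by edgeR, with list medians of -0.16 and -0.12 against -0.10 over all genes. DESeq2 called none of them either.

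Ciliated-like cells were also set against the other epithelial classes. Against 618 basal-like cells, 830 of 7685 tested genes (10.8%) were higher and 445 (5.79%) lower, and without the 70 cells that met another gate 683 and 485. Against 1841 clear/narrow-like cells, 989 of 9883 (10.0%) were higher and 379 (3.83%) lower, and without the 70 cells 770 and 420. The comparisons share the ciliated-like sums, so their values are given side by side. Axonemal genes were so low in both classes that they passed the filter mainly through the ciliated-like sums, and 52 and 65 of the 78 could be tested, so their levels are given in place of a count of calls. The 20 dynein arm genes summed to 1082, 392 and 839 CPM in ciliated-like cells, to 58.0, 50.6 and 59.9 in basal-like cells and to 59.7, 48.3 and 56.7 in clear/narrow-like cells. The 27 genes of the spokes and the central pair summed to 2458, 1190 and 2185 CPM, against 64.3, 53.7 and 67.8 and against 64.6, 55.7 and 102. In both lists the lowest ciliated-like sum lay above the highest sum of the other classes. Tppp3 was higher than in basal-like cells by a log2 fold change of 6.41 and than in clear/narrow-like cells by 5.51. Lrp2 was higher by 4.41 and 3.85, and Aqp1 by 3.36 and 3.18. Esr1 was higher than in basal-like cells by 2.57 but was not called against clear/narrow-like cells (log2 fold change 0.81, SE 0.18), in which it stood at 129, 94.4 and 94.1 CPM. Dab2, at 513, 361 and 527 CPM in ciliated-like cells and 784, 586 and 502 in clear/narrow-like cells, was not called between them either.

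Between P42 and P56 few genes of ciliated-like cells passed the test, in which the lone P42 library is assumed to vary like the P56 libraries. The study lists a separate batch for P42 and for each P56 replicate, so age cannot be told apart from batch, here or further on. Of 6283 tested genes 29 (0.462%) were called, 19 (0.302%) higher and 10 (0.159%) lower at P56, with 316 at an unadjusted p under 0.05, and DESeq2 called 2 and 0. None of the tested genes of the dynein arms, the assembly factors, the spokes, the doublets or intraflagellar transport was called by edgeR, with list medians between -0.65 and -0.06. With 0.462% of all genes called, no call among so few genes is near the share of all genes and is not a result about them. Higher at P56 were Spint4 and Spint5, secreted protease inhibitors. Spint4 stood at 18.4, 136 and 717 CPM in P42 and P56 replicates 1 and 2 (log2 fold change 4.74, SE 0.58, adjusted p = 2.08e-12), and Spint5 at 2.05, 37.6 and 143. In P56 replicate 2 a single cell held 211 of the 295 UMIs of Spint4 and a single cell 38 of the 59 of Spint5, so these levels are largely those of 1 cell. Crisp1, a secreted protein that coats sperm, stood at 42.9, 489 and 277, with at most 23 of its 200 UMIs in a cell. The 2 P56 values lay above the P42 value for Spint4, Spint5 and Crisp1, and the P56 replicates also stood well apart from each other. Spint4 and Crisp1 are markers of the principal gate, and a UMI of them was found in 33 and 59 of the 150 ciliated-like cells. Of the 26 caput secreted genes, 24 had a positive log2 fold change by age in ciliated-like cells and 2 a negative one (median 0.92). In principal-like cells 25 were positive and 1 negative (median 0.60).

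The other named genes higher at P56, Septin12, Smcp and Ube2m, were highest in P56 replicate 2, and Ube2m was called under 0 of 4 alternatives. Smcp, a protein of the sperm mitochondrial sheath, stood at 4.09, 7.53 and 221 CPM and Septin12 at 0, 7.53 and 77.8. A single cell of P56 replicate 2 held 48 of the 91 UMIs of Smcp in that library, and a single cell 27 of the 32 of Septin12. The 8 sperm markers summed to 10.2, 22.6 and 418 CPM in ciliated-like cells of P42 and P56 replicates 1 and 2, with 1 of the 8 at 0, and to 49.7, 105 and 313 in principal-like cells. With the ciliated-like cells that held a UMI of a sperm marker left out, 72, 14 and 31 cells remained, and 10 genes were higher and 12 lower at P56. Spint4, Spint5 and Crisp1 kept their calls then, with log2 fold changes of 5.26, 5.94 and 3.41. Whether the single cells with most UMIs of Spint4 and Spint5 were among those left out was not examined. Ube2m was not called at 3.58, and Smcp and Septin12 were no longer among the genes tested.

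Lower at P56 were Cxcl2, Col1a1, Col3a1, Col1a2 and Cpe. The neutrophil chemokine Cxcl2 had 67 UMIs at P42 (137 CPM) and 0 in both P56 libraries, and 45 of the 67 lay in 1 of the 15 cells with a UMI. Col1a1, a collagen of fibroblasts, stood at 209, 0 and 24.3 CPM, Col1a2 at 342, 15.1 and 68.1, and Col3a1 at 149, 15.1 and 17.0. Cpe, a carboxypeptidase that processes prohormones, stood at 94.1, 7.53 and 19.4 CPM and was called under 0 of 4 alternatives. The 6 fibroblast markers, which include these 3 collagens, summed to 1172, 248 and 540 CPM in ciliated-like cells and to 284, 153 and 183 in principal-like cells. In ciliated-like cells that met no other gate the sums were 241, 119 and 154, with 1 marker at 0. The cells left out there were chosen in part by these markers, so the lower sums are a description. Among the other genes lower at P56, Ecrg4, which encodes the secreted peptide augurin and was chosen after its values were seen, was one of the genes higher in ciliated-like than principal-like cells. It stood at 256, 37.6 and 75.4 CPM and at no more than 1.48 in principal-like cells (log2 fold change between the ages -1.86, SE 0.43, adjusted p = 0.005).

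**Figure D5:**
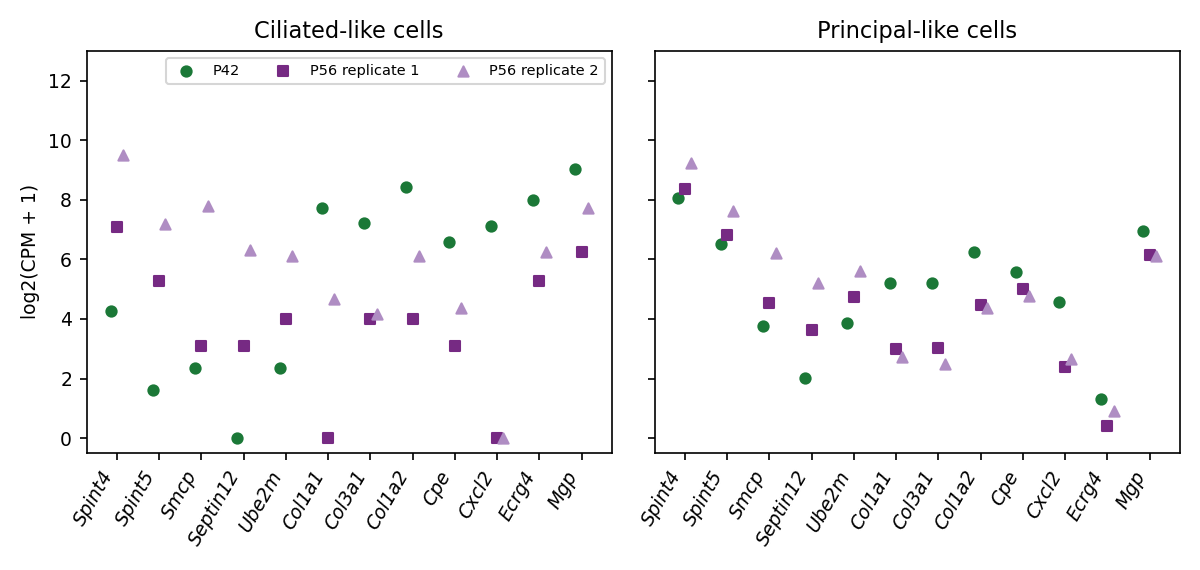
Levels of 12 genes named in the comparison of ages (x axis), as log2 of CPM plus 1, in ciliated-like cells (left) and principal-like cells (right) of the P42 library and the 2 P56 libraries; each symbol is 1 library. Spint4 and Spint5 are higher in both P56 libraries than at P42, Smcp is high in P56 replicate 2 alone, and the collagens and Ecrg4 are highest at P42.

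Whether an age difference was particular to ciliated-like cells was tested as the difference between their age difference and that of principal-like cells. It was called for 28 of 12366 genes (0.226%), 21 of them higher (0.170%) and 7 lower (0.0566%), while DESeq2 called 0 and 15 were called when cells with 5 or more germ-line genes were left out. In principal-like cells alone edgeR called no age difference (0 of 16092 genes, 2344 at an unadjusted p under 0.05), DESeq2 called 159, and edgeR called 146 without the cells holding germ-line genes. Dcdc2a, a doublecortin protein of cilia, held its level in ciliated-like cells at 409, 339 and 404 CPM and stood at 21.3, 1.76 and 4.34 in principal-like cells (log2 difference 2.56, SE 0.35, adjusted p = 1.65e-09). Gdf15, a stress-induced cytokine, showed the same pattern at 292, 286 and 224 against 31.3, 4.13 and 4.34. Atf3, a transcription factor induced by stress, stood at 1039, 851 and 647 against 363, 76.1 and 62.4, and Fos at 3301, 2101 and 1658 against 1434, 300 and 218. These 4 genes were chosen after their values were seen. Without the cells holding germ-line genes Dcdc2a, Gdf15 and Atf3 were still called, and Fos was not (log2 difference 1.46). For each of these 4 genes the ciliated-like value was above the principal-like value in every library, and the ratio of the 2 values was larger in both P56 libraries than at P42.

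Axonemal genes were among the 7 with a lower age difference in ciliated-like cells, namely Cfap206, Tekt1, Meig1, Ccdc39 and Rsph1. None of the 5 was called between the ages in either class alone. Meig1, which spermatids need for the sperm tail, stood at 127, 52.7 and 194 CPM in ciliated-like and at 19.8, 32.0 and 100 in principal-like cells, and Tekt1 at 155, 97.9 and 87.5 against 2.12, 3.06 and 6.96. In principal-like cells all 5 were highest in P56 replicate 2. Principal-like cells with 5 or more germ-line genes numbered 5, 20 and 62 in the same libraries. With such cells left out of both classes none of the 5 differences was called by edgeR, and they stood at -1.90 for Cfap206, -1.05 for Tekt1, -1.48 for Meig1, -0.60 for Ccdc39 and -0.64 for Rsph1.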

How the data were processed

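The authors deposited raw UMI counts per gene and barcode, made per the labels on the Singleron GEXSCOPE platform, and the submitters' processing notes name STAR 2.7.3a, UMI-tools and GRCm38.p6. Caput, corpus and cauda libraries held 5 pooled mice each. Barcodes were filtered by the rule given in the report, no doublet caller was run and no correction for free RNA was made.

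Cells were assigned to classes by marker gates (3 markers with 5 UMIs, 20 UMIs for principal cells), UMIs were summed per caput library and class, and the sums were tested in edgeR 4.0.16 (R 4.3.3) by the quasi-likelihood test with TMM scaling, filterByExpr and Benjamini-Hochberg adjustment over all genes tested. The genes of the rule were left out of the calls. The block was the library, since both classes of a library come from the same mice and chip, so the pairing comes from the design. DESeq2 1.42.0, unit scaling factors, no filter, thinned sums, other gates and leaving out each library were the alternatives. Python 3.11.15 with numpy 2.4.6, pandas 2.3.3, scipy 1.17.1 and matplotlib 3.10.9 did the rest.

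The named genes were the 20 largest increases and 10 largest decreases against principal-like cells, and the 5 largest in each direction by age, among called genes with 1 direction in every library and 30 UMIs in the higher class, besides members of the lists and the 10 genes most like Foxj1. Ecrg4, Dcdc2a, Gdf15, Atf3, Fos and the 10 decreases with 30 or more UMIs in ciliated-like cells fall outside it. Members and lists were chosen with earlier results of these data known, and the germ-line list and the alternatives leaving out germ-line cells and cells with sperm UMIs were added after seeing the data. Tested on simulated data with 200 genes changed 4-fold, the test recovered 98% against principal-like, 95% against basal-like, 96% against clear/narrow-like cells and 65.5% by age. The changed genes had an expected count of at least 5 in the smallest sum, and the simulated spread was fixed and not taken from the data. These shares therefore do not cover genes with fewer counts. Each library is a pool, so no p-value measures the spread between single mice. With the library as a block, p-values between classes set the class difference against a spread from pool to pool. edgeR's fit moderates this spread over genes, so with 3 libraries it is not that of a gene's own pools alone. A small p therefore does not mean that a gene stood at like levels in the libraries. In the tests that involve age, this moderated spread rests on the P56 pools alone, since the lone P42 pool gives none.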

Additional observations from a re-analysis of the deposited data

Results flagged for a closer look

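The age difference of ciliated-like cells differed from that of principal-like cells, by edgeR's test of the difference itself, in 28 genes. Age cannot be told apart from batch in these values. On the log2 scale and as the age difference in ciliated-like less that in principal-like cells, Cxcl2 stood at -10.54, a fitted value that is no bound because both P56 sums held 0 UMIs. Among genes of the axoneme lists the difference was -2.51 for Cfap206 (SE 0.54), -2.25 for Tekt1 (SE 0.58), -1.87 for Meig1 (SE 0.40), -1.56 for Ccdc39 (SE 0.40) and -1.51 for Rsph1 (SE 0.38). Among secreted proteins it was 1.58 for Crisp1 (SE 0.41), 3.54 for Spint4 (SE 0.47) and 4.67 for Spint5 (SE 0.87). DESeq2 called none of these, and 15 genes were called when the cells with 5 or more germ-line genes were left out. Then Cfap206, Tekt1, Meig1, Ccdc39, Rsph1 and Crisp1 were not called, and Spint4 and Spint5 were. A single ciliated-like cell held 45 of the 67 UMIs of Cxcl2 at P42, and in P56 replicate 2 a single cell held 211 of the 295 UMIs of Spint4 and a single cell 38 of the 59 of Spint5.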

How the results depend on the processing

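Counts are given as genes higher then lower in ciliated-like cells. Against principal-like, basal-like and clear/narrow-like cells, edgeR called 1207 and 798, 830 and 445, and 989 and 379. With no replicate block the counts were 1095 and 614, 787 and 377, and 905 and 268. With unit scaling factors 1897 were higher and 288 lower than in principal-like cells. With the compared class reduced at random to the depth of the ciliated-like sums the counts fell to 554 and 323, 545 and 290, and 487 and 197, with fewer genes tested. DESeq2 called 422, 289 and 201 lower, 2 higher and 0 lower at P56, and 0 for the difference between the age differences. With no filter on low counts 696 were lower than in basal-like cells and 12 higher at P56. With unit scaling factors 8 were higher at P56, and 10 without cells holding a sperm UMI. Without germ-line cells 15 age differences differed. Leaving out a library gave 759 to 1357 higher and 481 to 888 lower than in principal-like cells, 651 to 1079 and 318 to 580 against basal-like cells, and 662 to 1106 and 257 to 386 against clear/narrow-like cells. The shares of ciliated-like cells at P42 and in P56 replicates 1 and 2 were 1.38%, 0.164% and 0.815% under the stricter rule of 4 markers and 10 UMIs, 1.25%, 0.105% and 0.632% after thinning, and 2.54% at P42 under the looser rule. Where not stated, the cause was not tested. For the 193 named or listed genes called against principal-like cells, 2223 combinations of a gene and an alternative could be tested. Combinations in which a gene was not tested are left out, and with the compared class thinned 113 of the 193 remained. Of the 2223 combinations, 2031 kept their call, 192 did not and 0 reversed. For age 56 of 110 kept it. The stricter rule was not run for age, since P56 replicate 1 then holds 8 cells, and leaving out a library there leaves no residual degrees of freedom. Rare genes are limited most in P56 replicate 1, where the ciliated-like sum is smallest.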
